A study of Mus musculus with 6 samples.

Results

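Sialyltransferases are the enzymes that place sialic acid on the outer ends of the sugar chains of glycoproteins and glycolipids. Of the 20 mouse sialyltransferase genes, 10 are described here: St3gal1, St3gal2, St3gal3, St3gal4, St3gal6, St6gal1, St6galnac1, St6galnac2, St6galnac4 and St6galnac6. They were selected by gene name with the expression of the same 6 libraries already known, so their values in the 2 genotypes are given as a description, without p-values. Counts of members under a threshold are given further on, as a description too. All 10 are among the 54532 genes of the deposited table, and all 10 were among the 12654 genes whose mean FPKM reached 0.5. FPKM divides the fragments of a gene by its length and by a total set for its library. Levels of different genes can thus be set side by side. St6galnac2 had more than 1 entry, and the full-length one (ENSMUSG00000057286) was used.

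The libraries came from mouse CD8 T cells of spleen and lymph nodes, the lineage that kills infected and tumour cells. Every sample was activated for 3 days with beads carrying antibodies to CD3 and CD28, which replace the signals of the antigen receptor and of costimulation. There were 3 wild-type samples (WT) and 3 with a Ptpmt1 knockout (KO). Ptpmt1 is a gene for a mitochondrial phosphatase of cardiolipin synthesis. The labels used here give no strain, age or sex, nor what drove the deletion or which exons it removed. They also do not say whether replicates were separate animals, so the spread and the p-values cover differences between these samples, which may be technical.

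In the Golgi, each sialyltransferase joins an activated sialic acid to a set position of a set acceptor chain. The St3gal enzymes make alpha-2,3 links to galactose, St6gal1 makes alpha-2,6 links to galactose on N-glycans, and the St6galnac enzymes make alpha-2,6 links to N-acetylgalactosamine on O-glycans or gangliosides. When T cells are activated and become effectors, their surface sialylation is known to be remodelled, which changes the binding of lectins such as peanut agglutinin, galectins and selectins.

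Rebuilt whole reads came to 14932604 to 16819913 per library. The library totals behind the FPKM differed from these, from 13123695 in KO replicate 2 to 18047371 in KO replicate 3. Rebuilt reads were 1.28 times that total in KO replicate 2, 0.912 times in KO replicate 3 and 0.932 to 1.06 times in the rest. Ptpmt1 was at 3.75 to 4.13 FPKM in the WT libraries and 1.0004 to 1.58 in the KO libraries. Summed FPKM of 5 CD8 T cell markers was 1208 to 1547 in WT and 746 to 1327 in KO, while the list for CD4 and regulatory T cells summed to at most 5.995 in every library. Within that list, Cd4 was at 0.439 to 1.86 FPKM in WT and 0 to 0.137 in KO. Zbtb7b went the other way, at 0.655 to 1.22 in WT and 1.62 to 5.44 in KO, and the groups of Foxp3 overlapped. KO replicate 3 stood apart: it had 0 reads of Xist and 1837 of the Y-linked Ddx3y, whereas the other 5 libraries had Xist reads and 0 of Ddx3y. KO replicate 3 was thus not a technical repeat of KO replicates 1 and 2, and the KO spread holds this difference too. Mitochondrially encoded genes took 2.38% of reads in KO replicate 3, 7.53% in KO replicate 2 and 3.38% to 4.76% in the rest. Values with and without KO replicate 3 are therefore given for the genes the results turn on. In bulk RNA, fewer cells of a type and less RNA per cell cannot be told apart.

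The promoters of members that differed without overlap and for which RefSeq sequence was given are shown because they allow the letters around each start to be compared. Each line gives the 250 bases before the annotated start, 5′ to 3′ on the strand of the gene, from RefSeq (GRCm38.p6), with searched motifs in capitals.
St6galnac4, chr2:32586828-32587077, plus strand: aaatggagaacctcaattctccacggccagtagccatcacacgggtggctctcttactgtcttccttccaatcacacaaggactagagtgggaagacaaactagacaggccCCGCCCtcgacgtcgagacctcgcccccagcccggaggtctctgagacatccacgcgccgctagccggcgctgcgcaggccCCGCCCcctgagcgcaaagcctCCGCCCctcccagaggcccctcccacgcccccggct
St3gal4, chr9:35116865-35117114, minus strand: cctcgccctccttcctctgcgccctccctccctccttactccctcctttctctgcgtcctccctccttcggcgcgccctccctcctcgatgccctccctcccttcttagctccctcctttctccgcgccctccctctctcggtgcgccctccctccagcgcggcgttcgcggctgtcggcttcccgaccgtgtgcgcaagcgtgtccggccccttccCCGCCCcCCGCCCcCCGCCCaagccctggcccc
St6gal1, chr16:23224490-23224739, plus strand: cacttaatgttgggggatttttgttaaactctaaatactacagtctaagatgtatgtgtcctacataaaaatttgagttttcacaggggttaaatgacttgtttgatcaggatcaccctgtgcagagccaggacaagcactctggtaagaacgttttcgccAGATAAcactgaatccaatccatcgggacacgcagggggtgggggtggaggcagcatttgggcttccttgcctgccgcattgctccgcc

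The search covered both strands of the 300-base window from 250 before to 50 after each start, for 4 motifs: CGGAAG, bound by factors of the Ets family, CTTTGA, bound by Tcf and Lef factors, AGATAA, bound by the Gata family, and GGGCGG, the box of Sp-type factors. The last one reads CCGCCC on the opposite strand, and overlapping copies were each counted. The St6galnac4 window held GGGCGG 3 times and 23 CG dinucleotides, at 65.7% G or C. The St3gal4 window also held it 3 times, in a row of copies, with 31 CG dinucleotides and 74% G or C. These CG counts stood at the 80.0 and 90.5 percentiles of all 32851 RefSeq promoters, whose median was 7. The St6gal1 window, with 7 CG dinucleotides and 48% G or C, held AGATAA 1 time and GGGCGG 1 time, the latter across the start and so not capitalised. Among all promoters, 35.7% held GGGCGG, 11.2% AGATAA, 16.9% CGGAAG and 5257 of the 32851 CTTTGA. St6gal1 has 3 annotated starts in that set, and the libraries do not show which was in use. Only the first is printed. Its windows from 23225771 and from 23290220 held 0 copies of the 4 motifs, with 10 and 6 CG dinucleotides. A match is only a description of letters. Promoter windows were given for 6 of the 10 members.

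St6galnac1 and St6galnac2, which add alpha-2,6 sialic acid to the first sugar of O-glycans or to short O-glycan cores, were close to absent in every KO library. St6galnac1 (ENSMUSG00000009588, mm10 chromosome 11, 116765025 to 116775507, minus strand) was at 1.71, 0.980 and 1.79 FPKM in WT replicates 1 to 3 and at 0, 0 and 0 in KO replicates 1 to 3. All 3 KO libraries were at 0 and all 3 WT libraries were near 1 or 2 FPKM, so the groups did not overlap. The WT mean was 1.49 ± 0.445 FPKM (SD, n = 3), from 178 reads over the group against 0. Taking 3 reads over the KO group as the floor, St6galnac1 was at least 56.5-fold lower in KO, a bound that covers counting error only.

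St6galnac2 (chromosome 11, 116675303 to 116694868, minus strand) was at 2.06, 1.89 and 2.65 FPKM in WT and at 0.0110, 0.0526 and 0.0287 in KO. The lowest WT library was far above the highest KO library. The WT mean was 2.20 ± 0.397 FPKM and the KO mean 0.0308 ± 0.0209 (SD, n = 3 each). The reads behind them were 632 in WT and 8 in KO, a ratio of 75.2 after scaling for depth (95% counting interval 37.9 to 175). On the scale of log2(FPKM + 0.5), which understates the change of genes this low, the difference KO minus WT was -1.97 (SE 0.30) for St6galnac1 and -2.34 (SE 0.25) for St6galnac2. Without KO replicate 3 these were -1.97 and -2.33. The size of both depends on the constant added: with 0.1 in place of 0.5 they were -3.95 and -4.13, and with 1 they were -1.30 and -1.63.

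The 2 genes are neighbours, with 70.2 kb between them. Within 250 kb of St6galnac2 the annotation lists 29 genes, of which 13 passed the filter on low values. From the lowest coordinate of St6galnac2 to the highest of St6galnac1 (116675303 to 116775507) is a stretch of 100.2 kb. It holds 5 entries, and all 5 were at or near 0 in KO. Besides the 2 members these are BC018473, Gm11735 and a short second entry for St6galnac2 (ENSMUSG00000110170), which had 11 reads in WT and 0 in KO. That second entry (116677483 to 116681290) lies wholly within St6galnac2. It was near 0 in WT too, at 0.0363, 0 and 0.338 FPKM, from 1, 0 and 10 reads. Its groups overlapped, so it is not separate evidence of a difference between genotypes.

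BC018473 (ENSMUSG00000056032), a transcript annotated as antisense that ends 5.65 kb from St6galnac1, was at 7.43, 8.30 and 7.38 FPKM in WT and at 0 in each KO library. It was called by limma (log2 difference -4.03, SE 0.19, adjusted p = 0.000759), the only gene of the window to be called. Its 2072 WT reads against 0 make it at least 657-fold lower in KO. The pseudogene Gm11735 was at 0.927, 0.824 and 1.19 FPKM in WT and 0.0402, 0 and 0 in KO. Gm11735 lay below the filter and shares 818 stretches of 50 bases with St6galnac1, 34.9% of those of St6galnac1, so reads of the 2 may be divided between them in an unknown way.

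Outside that stretch the differences were small. Over the 9 tested flanking genes, log2 differences ran from -0.36 (Mfsd11) to 0.36 (Mettl23), and limma called 0 of 9. At an unadjusted p under 0.05 there was 1 of 9, beside 21.8% of all genes tested. The gene with that p was Jmjd6 (log2 difference 0.35, adjusted p = 0.228). By limma-voom on rebuilt reads, BC018473 was also the only gene of the window to be called. Without KO replicate 3 the flanking range widened to -0.59 (Gm11739) to 0.70 (Mettl23, adjusted p = 0.0545), again with 0 of 9 called. The groups did not overlap for 3 of the 9, beside 27.8% of all genes tested: Ubald2 and Mfsd11 were lower and Jmjd6 higher in KO. On the St6galnac2 side, Rhbdf2 differed by 0.17, Ube2o by 0.10, Prpsap1 by -0.06, Gm11739 by -0.29 and Ubald2 by -0.30. On the St6galnac1 side, Srsf2 differed by 0.26. 1810032O08Rik overlaps St6galnac2 by 497 bases on the opposite strand and was at 5.85, 5.30 and 5.68 FPKM in WT and 4.42, 6.42 and 4.63 in KO (log2 difference -0.13, adjusted p = 0.716). The low values of St6galnac2 in KO thus stood beside a partner on the other strand whose groups overlapped.

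**Figure D1:**
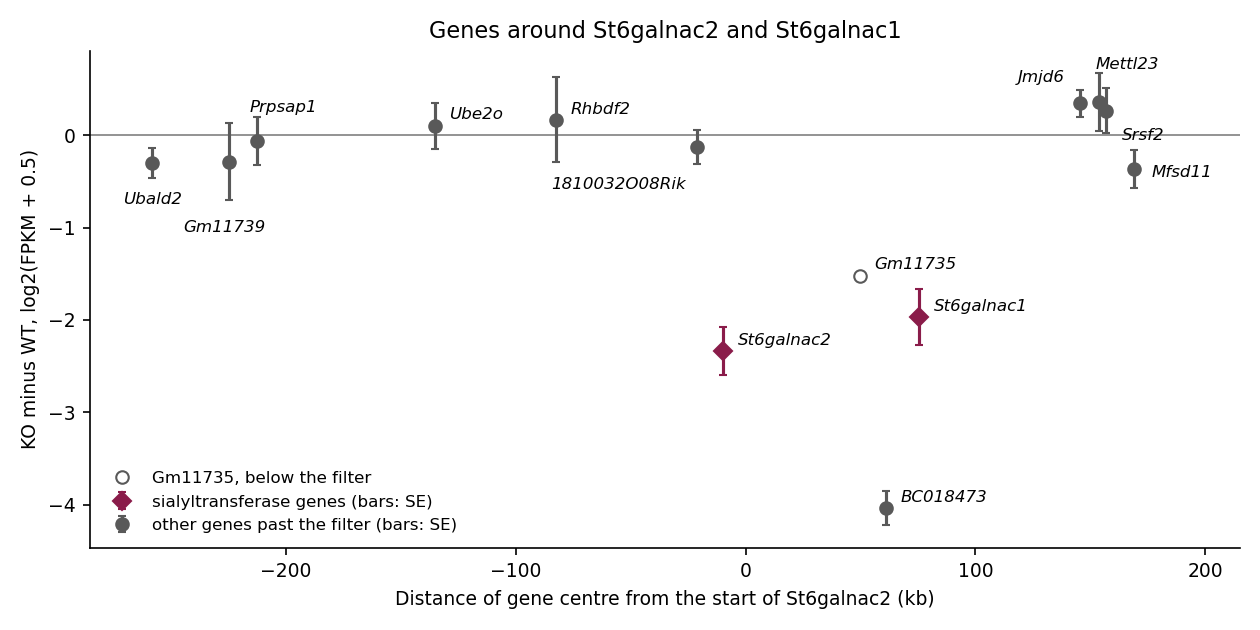
Difference KO minus WT in log2(FPKM + 0.5) for genes around St6galnac2, against the distance of the gene centre from the start of St6galnac2 in kb; points are differences of group means (n = 3 each) and bars are limma standard errors, which Gm11735, untested, does not have. St6galnac2 (-2.34), BC018473 (-4.03), St6galnac1 (-1.97) and Gm11735 lie next to each other well below 0, and the flanking genes lie between -0.36 and 0.36.

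St6galnac1 and St6galnac2 followed each other over the 6 libraries with a Pearson r of 0.99 in log2(FPKM + 0.5), a description that mostly restates the gap between genotypes. By the same measure over all tested genes, the 5 most like St6galnac2 were Ap4b1 (r = 0.999), Gm42031 (0.996), Ccdc157 (0.995), Rmc1 (0.994) and Asb13 (0.993). Their sizes of difference were unlike: Gm42031, a noncoding RNA, was at 18.2 FPKM in WT and 0.0323 in KO, while Ap4b1 was at 1.09 and 0.762. The 5 most like St6galnac1 were Mir1943 (0.994), Gm42031 (0.992), St6galnac2 (0.989), Rmc1 (0.987) and Ap4b1 (0.985). Mir1943, a microRNA hairpin, was at 1.67, 0.892 and 2.34 FPKM in WT and at 0 in every KO library, but it is so short that these values rest on 2, 1 and 3 reads.

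St6gal1, the main enzyme of alpha-2,6 sialic acid on N-glycans, had the highest mean of the 10 genes in WT. St6gal1 (ENSMUSG00000022885, chromosome 16, 23224740 to 23360350, plus strand) was at 32.9, 36.2 and 11.8 FPKM in WT and at 9.01, 8.62 and 10.7 in KO. The KO libraries lay close together and all below the WT libraries, but WT replicate 3 was much nearer to them than to the other WT libraries. The WT mean was 27.0 ± 13.2 FPKM and the KO mean 9.46 ± 1.13 (SD, n = 3 each), 2.85-fold higher in WT, from 6397 and 2206 reads. The log2 difference was -1.32 (SE 0.41). Without WT replicate 3 it was -1.82, with a ratio of 3.65, and without KO replicate 3 it was -1.41. B cells also express St6gal1: the summed FPKM of the 5 listed B cell markers was 18.7 to 25.0 in WT and 13.4 to 15.1 in KO. Most of that sum was Cd79b (13.9 to 22.7 and 10.7 to 13.2), while Ms4a1 and Pax5 were at or below 0.865 in every library. Their part in the St6gal1 difference was not tested.

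The other St6galnac genes of the list, St6galnac4 and St6galnac6, had higher means in KO. St6galnac4, which adds a further sialic acid to O-glycan cores that already carry one, was at 3.02, 3.33 and 5.97 FPKM in WT and 7.50, 6.01 and 11.8 in KO. St6galnac4 (ENSMUSG00000079442, chromosome 2, 32587095 to 32599698, plus strand) did not overlap between groups, but WT replicate 3 and KO replicate 2 almost met. Means were 4.10 ± 1.62 and 8.43 ± 2.99 FPKM (SD, n = 3 each), 2.05-fold higher in KO. The log2 difference was 0.96 (SE 0.32), 0.70 without KO replicate 3 and 1.23 without WT replicate 3.

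St6galnac6, whose main acceptors are gangliosides, begins 10 bases after St6galnac4 ends (ENSMUSG00000026811, chromosome 2, 32599709 to 32620806, plus strand). It was at 0.533, 0.649 and 1.29 FPKM in WT and 1.03, 1.39 and 2.29 in KO. The groups overlapped, since WT replicate 3 lay above KO replicate 1. The means were 0.824 ± 0.407 and 1.57 ± 0.649 FPKM (SD, n = 3 each), with a log2 difference of 0.64 (SE 0.33). The levels of St6galnac4 and St6galnac6 had a Pearson r of 0.94 over the 6 libraries, and each was highest in replicate 3 within both genotypes. Reads that run past the end of St6galnac4 into St6galnac6 cannot be set apart by these values.

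Among the alpha-2,3 enzymes, St3gal4 was the most abundant in both genotypes and higher in each KO library than in each WT library. St3gal4 builds sialylated lactosamine ends, which include selectin ligands (ENSMUSG00000032038, chromosome 9, 35046576 to 35119268, minus strand). It was at 9.90, 12.0 and 13.1 FPKM in WT and 15.2, 14.9 and 15.8 in KO. The gap between WT replicate 3 and KO replicate 2 was small. The means were 11.7 ± 1.61 and 15.3 ± 0.479 FPKM (SD, n = 3 each), 1.31-fold higher in KO, with a log2 difference of 0.39 (SE 0.16). It was 0.36 without KO replicate 3, and 0.13 when the FPKM of each library was scaled to the same total. The antisense neighbour 4930581F22Rik shares 283 stretches of 50 bases with St3gal4 and had the opposite sign, at 2.93, 3.78 and 2.83 FPKM in WT and 1.74, 1.48 and 1.57 in KO (log2 difference -0.80, limma adjusted p = 0.107). This neighbour was named after its values were seen.

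St3gal1, which caps core 1 O-glycans and so hides the binding site of peanut agglutinin on CD8 T cells, was at 5.50, 5.66 and 4.03 FPKM in WT and 3.41, 2.27 and 4.59 in KO. KO replicate 3 lay above WT replicate 3, so the groups overlapped. Means of St3gal1 (ENSMUSG00000013846, chromosome 15, 67102875 to 67176830, minus strand) were 5.07 ± 0.899 and 3.43 ± 1.16 FPKM (SD, n = 3 each). The log2 difference was -0.53 (SE 0.26), between -0.74 without KO replicate 3 and -0.30 without KO replicate 2.

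St3gal2, which uses similar core 1 chains and also gangliosides, was at 0.739, 0.814 and 1.43 FPKM in WT and 0.744, 0.862 and 2.65 in KO. Replicates 1 and 2 of both genotypes were nearly equal, and replicate 3 was the highest in each. The log2 difference of St3gal2 (ENSMUSG00000031749, chromosome 8, 110919922 to 110972480, plus strand) was 0.25 (SE 0.41), and it was -0.17 without KO replicate 3.

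St3gal3 and St3gal6 act mainly on lactosamine ends, as St3gal4 does. St3gal3 (ENSMUSG00000028538, chromosome 4, 117932154 to 118134914, minus strand) was at 3.42, 2.66 and 2.86 FPKM in WT and 2.64, 1.84 and 3.58 in KO. The range of the KO libraries covered all WT libraries, and the log2 difference of -0.16 (SE 0.24) became 0.05 without KO replicate 2. St3gal6 (ENSMUSG00000022747, chromosome 16, 58468125 to 58524243, minus strand) was at 6.18, 6.47 and 3.64 FPKM in WT and 6.67, 12.3 and 2.48 in KO. KO replicates 2 and 3 were the highest and the lowest of all 6 libraries, and the log2 difference was 0.17 (SE 0.51). It was 0.73 without KO replicate 3, -0.32 without KO replicate 2, -0.07 without WT replicate 3 and -0.10 with the same total. For St3gal6, 24.1% of its 50-base stretches also occur in Dcbld2, so its level is uncertain.

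**Figure D2:**
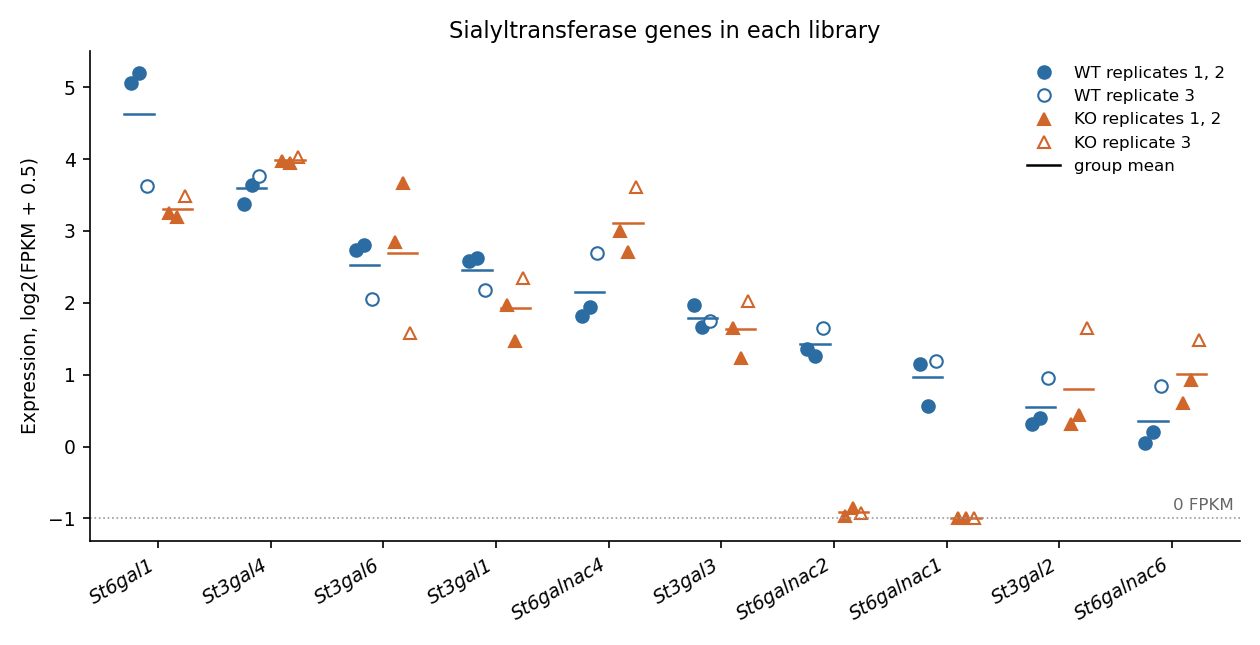
Expression of the 10 sialyltransferase genes as log2(FPKM + 0.5) in each of the 3 WT and 3 KO libraries, with the group mean as a line and replicate 3 as open symbols. St6galnac1 and St6galnac2 lie at or next to 0 FPKM in KO, and WT replicate 3 of St6gal1 (11.8 FPKM) lies near the KO libraries.

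**Figure D3:**
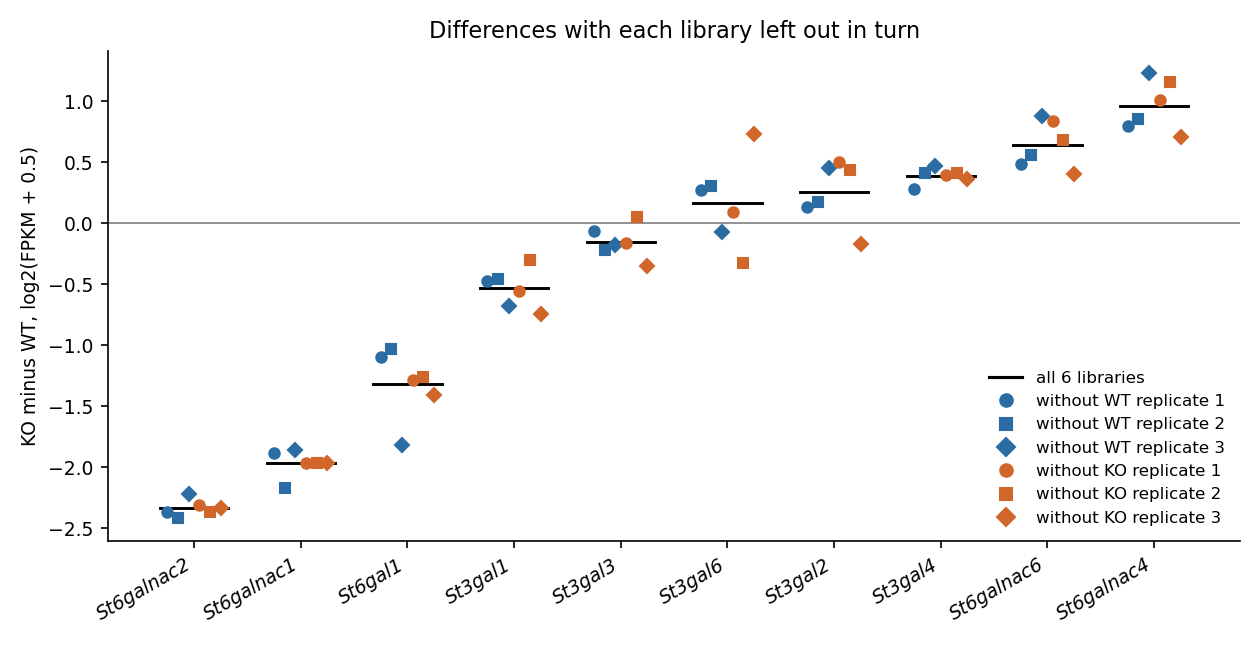
Difference KO minus WT in log2(FPKM + 0.5) for each gene with all 6 libraries (line) and with each library left out in turn (symbols). St6galnac2, St6galnac1, St6gal1 and St3gal1 stay below 0 and St3gal4, St6galnac6 and St6galnac4 above 0, while St3gal2, St3gal3 and St3gal6 change sign.

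Counted over the 10 genes, 5 log2 differences were below 0 and 5 above 0, beside 47.6% below 0 for all genes tested. The groups did not overlap for 3 genes lower in KO (St6galnac1, St6galnac2, St6gal1), beside 13.3% of all genes, and for 2 higher in KO (St3gal4, St6galnac4), beside 14.5%. With every library scaled to the same total, the 3 lower genes still did not overlap, while both higher ones did: St3gal4 was then at 10.4, 13.4 and 15.6 in WT and 13.9, 10.7 and 19.2 in KO, and St6galnac4 at 3.17, 3.72 and 7.11 in WT and 6.85, 4.304 and 14.3 in KO. Limma called 0 of 10 at an adjusted p under 0.05, beside 0.0395% of all genes, and limma-voom also called 0. At an unadjusted p under 0.05 there were 5 of 10, beside 21.8%. Without KO replicate 3, limma called St6galnac1 and St6galnac2, beside 13.7% of all genes. With KO means of 0 and 0.0308 FPKM, both passed the filter only through their WT values, so these calls are not separate support. The median log2 difference was 0.005 for the 10 genes and 0.03 for all genes. With the same total in each library, or without replicate 3 of either genotype, 6 of the 10 lay below 0. Since these values chose the genes, the counts are a description, and a count above the share of all genes is not evidence of a difference.

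The order of the mean levels differed between genotypes at the top and in the place of the St6galnac genes, but in WT replicate 3 St3gal4 (13.1 FPKM) lay above St6gal1 (11.8), as in KO. In WT the order by mean FPKM was St6gal1, St3gal4, St3gal6, St3gal1, St6galnac4, St3gal3, St6galnac2, St6galnac1, St3gal2 and St6galnac6. Neighbours in that order had overlapping ranges except St3gal4 and St3gal6, St3gal3 and St6galnac2, and St6galnac2 and St6galnac1. In KO the order was St3gal4, St6gal1, St6galnac4, St3gal6, St3gal1, St3gal3, St6galnac6, St3gal2, St6galnac2 and St6galnac1. There, St3gal4 lay above St6gal1 in every library, and the low pair of St6galnac2 and St6galnac1 overlapped neither each other nor St3gal2.

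The summed FPKM of the 10 genes came to 66.0, 70.6 and 48.5 in WT and 46.2, 48.2 and 54.0 in KO. WT replicate 3 fell within the KO range, so the groups overlapped. St6gal1 made up 49.9%, 51.2% and 24.3% of that sum in WT and 19.5%, 17.9% and 19.9% in KO. The other 9 genes together were at 33.1, 34.4 and 36.7 FPKM in WT and 37.2, 39.6 and 43.2 in KO, without overlap but with a small gap. With every library scaled to the same total, that sum overlapped, at 34.7, 38.5 and 43.8 in WT and 34.02, 28.4 and 52.4 in KO. St3gal4 took 15.0%, 16.97% and 26.9% of the sum in WT and 32.9%, 30.9% and 29.3% in KO. The share of St6gal1 was thus lower in all KO libraries and that of St3gal4 higher, with WT replicate 3 between the other WT libraries and KO in both. Replicate 3 was the highest of its genotype for St3gal2, St3gal4, St6galnac4 and St6galnac6 and the lowest for St3gal6, in WT and KO alike.

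Of the other 10 sialyltransferase genes, 3 passed the filter, and limma and limma-voom called 0 of 3. At an unadjusted p under 0.05 there was 1 of 3, beside 21.8% of all genes tested. St8sia1, which makes the disialylated ganglioside GD3, was at 14.6, 15.4 and 9.16 FPKM in WT and 5.86, 4.16 and 4.52 in KO. Its KO libraries were all below its WT libraries, and as for St6gal1 the lowest WT library was replicate 3. The log2 difference was -1.32 (SE 0.24, adjusted p = 0.0884), and without KO replicate 3 it was -1.28 (adjusted p = 0.0395). St8sia4, a polysialyltransferase, was at 6.51, 5.39 and 3.72 FPKM in WT and 4.87, 9.57 and 2.21 in KO (log2 difference -0.08, adjusted p = 0.934). St3gal5, which makes the ganglioside GM3, was at 0.467, 0.746 and 0.392 FPKM in WT and 1.16, 0.378 and 0.825 in KO (log2 difference 0.28, adjusted p = 0.658). St6gal2, St8sia3 and St8sia5 had 0 reads in every library.

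The sialyltransferases depend on donors, acceptors and carriers made by other genes, and 75 of these were listed by role, with earlier results of these data known. Of the 52 that passed the filter, limma and limma-voom called 0. At an unadjusted p under 0.05, 7 were higher and 9 lower in KO, 30.8% of the 52 against 21.8% of all genes, and the median log2 difference was -0.15 against 0.03. Without KO replicate 3, limma called 10 (3 higher and 7 lower), 19.2% against 13.7% of all genes.

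For the donor, 7 synthesis and transport genes were tested, and 3 had groups that did not overlap, beside 27.8% of all genes tested in either direction. Nans, the synthase that makes sialic acid phosphate, was at 19.9 ± 4.80 FPKM in the WT group and 31.2 ± 3.43 in the KO group (SD, n = 3 each, as for all that follow), with a log2 difference of 0.66 and an adjusted p of 0.150. Cmah, which turns CMP-Neu5Ac into CMP-Neu5Gc, the form of donor that mouse sialyltransferases also use, was at 30.4 ± 7.49 and 14.4 ± 3.19 FPKM (-1.05, adjusted p = 0.110). Upstream, in hexosamine supply, Pgm3 was at 3.04 ± 0.173 and 4.49 ± 0.970 FPKM (0.48, adjusted p = 0.222), whereas Gfpt1 and Uap1 differed by 0.09 and 0.07. For removal and O-acetylation of sialic acid, 5 of 6 tested genes had log2 differences below 0, beside 47.6% of all genes tested. They include Ctsa, which protects the sialidase Neu1, at 19.4 ± 2.04 and 12.1 ± 2.48 FPKM (-0.67, adjusted p = 0.130), and the O-acetylesterase Siae at 2.09 ± 0.191 and 1.25 ± 0.069 (-0.56, adjusted p = 0.161). Neu1 itself differed by -0.12.

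For the acceptors of St6galnac1 and St6galnac2, the O-glycan list had 11 tested genes, 4 above and 7 below 0. Galnt3 and Galnt4, which start O-glycans, had opposite signs: Galnt3 was at 0.709 ± 0.036 FPKM in WT and 2.86 ± 0.523 in KO (1.46, adjusted p = 0.0884), and Galnt4 at 3.42 ± 0.470 and 1.43 ± 0.217 (-1.02, adjusted p = 0.0884). The most abundant starter, Galnt1, was at 31.5 and 33.8 FPKM (0.10, adjusted p = 0.694), and C1galt1, the core 1 synthase, differed by -0.09. Without KO replicate 3, limma called Galnt3 and C1galt1c1 as higher and Galnt4, Galnt6 and Galnt10 as lower. From the other lists it then called Pgm3 as higher (0.65, adjusted p = 0.0448) and B4galnt1 (-0.91, 0.0344), Ctsa (-0.82, 0.0349), Selplg (-0.78, 0.0375) and Cd8a (-0.71, 0.0491) as lower. Of the galactose and fucose enzymes, B4galt1 was at 52.0 and 39.1 FPKM (-0.40, adjusted p = 0.252), B4galt4 at 0.248 and 0.934 (0.89, adjusted p = 0.198), and B4galt5 differed by 0.58. In N-glycan branching, which builds the acceptors of St6gal1, Mgat2 was at 35.6 and 45.6 FPKM (0.36, adjusted p = 0.207) and Mgat1 differed by -0.24. For gangliosides, B4galnt1 was at 93.4 and 61.6 FPKM (-0.65, adjusted p = 0.202) and Ugcg differed by -0.30.

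Of the surface proteins that carry sialic acid, 6 of 6 had log2 differences below 0, beside 47.6% of all genes tested, and 4 had groups without overlap, beside 27.8%. Selplg, the P-selectin ligand, was at 109 and 68.6 FPKM (-0.67, adjusted p = 0.124), and Cd8a, the CD8 alpha chain, at 199 and 130 (-0.62, adjusted p = 0.149). Cd8b1 was at 588 and 434 FPKM and its groups overlapped. Of the receptors that bind sialylated chains, 3 of 13 passed the filter, among them Selp (-0.65, adjusted p = 0.275) and Pilrb1 at 0.280 and 1.23 (1.19, adjusted p = 0.136).

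**Figure D4:**
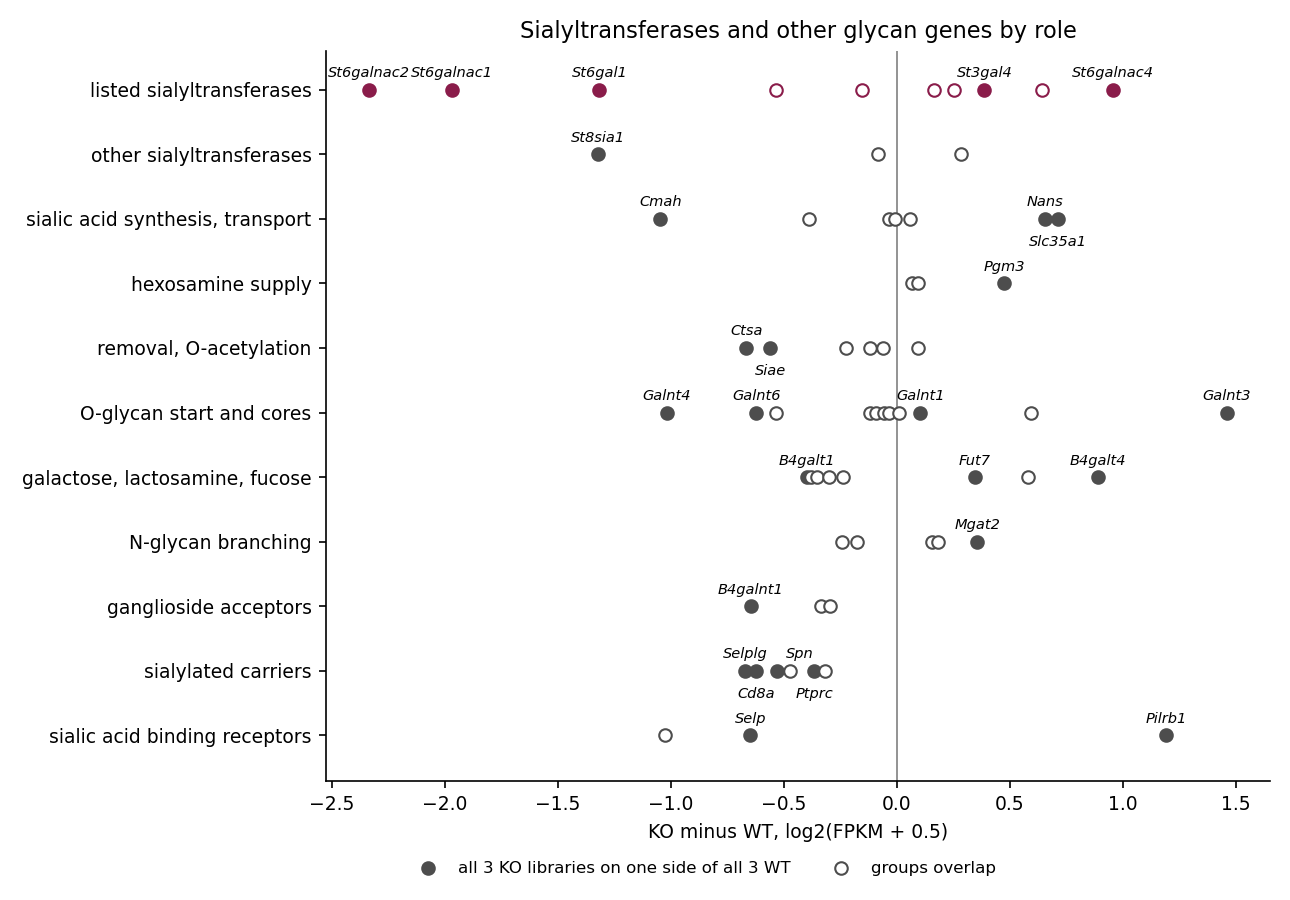
Difference KO minus WT in log2(FPKM + 0.5) for each tested gene, by role, with filled points where all 3 KO libraries lay on one side of all 3 WT libraries and open points where they overlapped. The listed sialyltransferases span -2.34 (St6galnac2) to 0.96 (St6galnac4), and Galnt3 (1.46) is the highest of the other genes.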

How the data were processed

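RNA sequencing libraries of 6 samples (3 WT, 3 KO, grouped by the genotype label) were analysed from 1 deposited table. The authors deposited FPKM per gene and sample and, as a column of another kind, gene length in bases. The submitters' processing notes name DESeq2, featureCounts 1.5.0-p3, HISAT2 2.0.5 and Trim Galore, with the build mm10 and no order. Libraries were stranded mRNA libraries, per the labels' protocols. Neither the strand setting nor the treatment of reads with several matches is stated there, so genes overlapping on opposite strands or sharing sequence are uncertain.

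In each library, multiplying FPKM by gene length gave whole multiples of 1 unit for at least 99.99% of values (tolerance 0.05), from which whole reads were rebuilt. These were used for limma-voom as an alternative and for read totals. Fold bounds use a floor of 3 reads over a group, and 95% intervals of read ratios are exact; both cover counting error only. Identifiers of 54409 of 54532 genes matched GENCODE M21, whose coordinates (mm10, from 1) are used.

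Genotype was tested on log2(FPKM + 0.5) with limma 3.58.1 in R 4.3.3 (mean-variance trend, 2-sided, no covariate) for genes whose mean FPKM reached 0.5. P-values were adjusted by Benjamini-Hochberg over all 12654 genes and called under 0.05. The limma step was tested on simulated data. The members and lists were chosen with earlier results of these data known. Named genes are all 10 members, other sialyltransferases past the filter, every tested gene within 250 kb of St6galnac2, the 5 genes most correlated with St6galnac1 and with St6galnac2, Ptpmt1, and from each pathway list any called gene, the 2 of highest mean and up to 2 non-overlapping genes of smallest p. Some genes that the rule names are not reported here. Genes called without KO replicate 3 are named beside these. Shared 50-base stretches were counted over GENCODE M21 transcripts. Alternatives covered pseudocount, filter, scaling, variance model, limma-voom, a replicate block and each library left out. Groups of 3 are too small for the outlier screen. Tables and plots used matplotlib 3.10.9, scipy 1.17.1 and pandas 2.3.3 in Python 3.11.15.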

Additional observations from a re-analysis of the deposited data

How the results depend on the processing

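Limma called 5 of all genes tested; it called 3 with a pseudocount of 1, 3 with no filter, 14 with no variance trend, and 1 by limma-voom on rebuilt reads. Leaving out 1 library gave 2 to 1733, the highest without KO replicate 3. The pathway genes had 0 called; leaving out 1 library gave 0 to 10, with 10 without KO replicate 3, and each other alternative gave 0. Counts of genes near St6galnac2 leave out the 2 members there. BC018473 was the 1 gene so counted, called under every alternative. Without KO replicate 3, St6galnac1 and St6galnac2 were called too, as were 13.7% of all genes. Both members were chosen with this contrast known, so their calls are a description. A replicate block gave 12 calls over all genes, 0 among pathway genes and 1 near St6galnac2; deviations of same-numbered libraries correlated at 0.13, 0.067 and 0.33, WT replicate 1 correlated best with KO replicate 2 (0.27), and nothing in the labels says that the numbers pair samples. Scaling to the same total moved the median log2 difference of all genes from 0.03 to -0.20 and St3gal4 to 0.13. By limma-voom, St6galnac1 and St6galnac2 differed by -6.77 and -6.12. Of the single-gene values under the alternatives, 747 kept their sign and side of the threshold or, for the 10 members, stayed within the replicate spread. A member that changed sign within that spread was counted among these. Another 23 changed sign without passing the threshold or, for members, moved beyond the spread, and 8 newly passed. St6galnac1 fell below a filter at a mean FPKM of 1. Depth limits the KO levels of St6galnac1, St6galnac2 and Gm11735, which rest on 0, 8 and 1 reads, and Mir1943, with 6 reads in WT.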
